A study of Mus musculus with 4 samples.

Results

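The genes described here are 9 transcription factors that build and maintain the oligodendrocyte lineage: Olig1, Olig2, Sox10, Sox8, Nkx2-2, Nkx6-2, Myrf, Tcf7l2 and Zfp488. They were picked by mouse symbol from count tables of 55471 Ensembl genes, and all 9 had a single matching row. All 9 also passed the filter on low counts, which left 15816 genes for testing. The RNA came from 2 libraries of mice given cuprizone and 2 mock libraries, all labelled brain, astrocytes, batch 1 and 3 weeks. All mice had the genotype GFAP-Cre+/- Rpl22HA/wt. Cre under the GFAP promoter activates an HA tag on the ribosomal protein Rpl22, so that ribosomes of cells with Cre activity can be pulled down with their RNA, and each mouse carried 1 taggable allele. The series' design text describes males of 8 to 9 weeks, 0.2% cuprizone by weight in chow, matched animals on normal diet and dissected corpus callosum. The collection times it names are week 5, week 5.5 and week 7 and so differ from the 3 weeks on the samples, and the samples' time is used here.

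Olig1 and Olig2 are basic helix-loop-helix proteins that bind E-box sequences, and Olig2 is needed to specify oligodendrocytes. Sox10 and Sox8 belong to the SoxE group of HMG-box factors, and Sox10 switches on myelin genes together with Myrf, which oligodendrocytes turn on as they mature. Nkx2-2 and Nkx6-2 are homeodomain factors, Tcf7l2 is a nuclear partner of beta-catenin in Wnt signalling, and Zfp488 is a zinc finger protein that promotes differentiation. Cuprizone kills mature oligodendrocytes. Precursors then divide and differentiate, and they carry the early factors of this set.

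Both cuprizone libraries lay above both mock libraries in 5 of the 9 factors, namely Olig2, Sox10, Nkx2-2, Nkx6-2 and Myrf. Sox8 lay below in both, and the groups overlapped for Olig1, Tcf7l2 and Zfp488. The fitted differences of the 5 higher factors were between 0.56 and 0.90 on the log2 scale. No member passed an edgeR quasi-likelihood test with Benjamini-Hochberg adjustment over all genes. At the threshold of 0.05 that test called 0 of the 9 and 0.0822% of all tested genes, a background too low to read anything from 0 of 9. At an unadjusted p under 0.05, 2 members qualified, Sox10 and Myrf, beside 12.8% of all tested genes. DESeq2 called 0 of the 9 (4.52% of all tested genes) and limma-voom 0 (0.297%). The other alternatives called 0 members as well, with backgrounds of 0.769% without a filter, 0.485% at a mean CPM (counts scaled to the library total) of at least 1, 0.322% with bias-adjusted quasi-likelihood, 0.0632% with a replicate block and 0.0822% under other scalings. Without cuprizone replicate 1, cuprizone replicate 2, mock replicate 1 or mock replicate 2 the backgrounds were 0.717%, 0.153%, 0.0292% and 0.029%. Cuprizone libraries lay above mock libraries without overlap in 25.7% of all tested genes, and below in 18.9%. With TMM factors those shares were 21.9% and 22.5%, and the members' counts of 5 and 1 did not change. The labels call the libraries biological replicates without saying how many animals each holds, so a p-value measures the spread between these 4 libraries.

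The libraries held 21209517 to 23822620 counts, and 3 counts, the limit that a count of 0 allows, equal 0.126 to 0.141 CPM. That limit covers counting error alone, because PCR copies were not told apart by molecular identifiers. The 14 astrocyte markers together took 0.599% and 0.677% of counts in cuprizone libraries, against 1.01% and 0.972% in mock libraries, with all 14 detected. Of the 14, 7 were lower in both cuprizone libraries (18.9% of all tested genes), 1 was higher (25.7%) and 6 overlapped. Aldoc, the most abundant, had 2960 and 3248 CPM in cuprizone libraries and 4763 and 3911 CPM in mock libraries. Gfap, whose promoter drives Cre, had 385 and 451 CPM in cuprizone libraries and 963 and 870 CPM in mock libraries. Rpl22, the tagged protein's gene, had 42.2 and 27.5 CPM in cuprizone libraries and 40.6 and 40.1 CPM in mock libraries. Cuprizone replicate 2 stood apart by granule cell markers of the cerebellum. These 8 genes summed to 135 CPM in cuprizone replicate 1 and 1204 CPM in cuprizone replicate 2, against 45.0 and 33.9 CPM in the mock libraries. Gabra6 had 11.8 and 214 CPM and Cbln3 22.4 and 331 CPM in cuprizone replicates 1 and 2. Both genes, which mark those neurons, were at 0 in both mock libraries. The part of cerebellar RNA in any member's value was not tested.

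Promoter sequence was taken for the members that were higher in both cuprizone libraries, because they moved the same way. The RefSeq table on GRCm38.p6 held 7 windows for 6 of the 9 members, and among the 5 higher ones it covered Olig2, Nkx2-2 and Nkx6-2. The sequences run 5′ to 3′ toward the RefSeq start that each window was cut at and leave out bases that GENCODE M21 annotates as exon. For Nkx2-2 that is an internal start, so its stretch lies inside the GENCODE span of the gene. Capitals mark matches on either strand to the E-box CANNTG, the Sox cores ACAAAG and ACAATG, the NK2 homeodomain core AAGTG, the Tcf core CTTTGAT and the Myrf core CTGGCAC.
Olig2, chr16:91225300-91225456, plus strand: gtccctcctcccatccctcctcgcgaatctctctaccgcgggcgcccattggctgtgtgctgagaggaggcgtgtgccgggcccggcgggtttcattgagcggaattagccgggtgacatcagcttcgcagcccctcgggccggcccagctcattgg
Nkx2-2, chr2:147186456-147186652, minus strand: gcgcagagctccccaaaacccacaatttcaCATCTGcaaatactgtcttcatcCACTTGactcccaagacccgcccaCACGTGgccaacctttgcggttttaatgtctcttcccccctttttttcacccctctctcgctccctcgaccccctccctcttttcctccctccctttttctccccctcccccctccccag
Nkx6-2, chr7:139582798-139583047, minus strand: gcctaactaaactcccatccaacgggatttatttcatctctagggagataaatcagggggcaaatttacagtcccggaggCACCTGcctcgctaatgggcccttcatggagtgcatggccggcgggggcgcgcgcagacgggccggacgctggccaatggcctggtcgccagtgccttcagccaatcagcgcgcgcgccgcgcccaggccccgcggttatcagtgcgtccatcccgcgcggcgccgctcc

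The Nkx2-2 stretch held 3 E-boxes. Its middle E-box CACTTG overlapped the only NK2 core match, and its last was CACGTG. The Nkx6-2 stretch held 1 E-box, CACCTG. The Olig2 stretch of 157 bases held none of the 6 motifs, while the full RefSeq window of 250 bases had 1 match to ACAATG. That match involves the 93 bases of the window that GENCODE counts as Olig2 exon, after the gene start given below. Of 32851 windows of 250 bases in the table, 66.2% held an E-box, 40.7% the NK2 core, 16.5% ACAAAG, 10.7% ACAATG, 4.19% the Myrf core and 3.21% the Tcf core. These matches describe the letters only and show no binding.

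Sox10, the SoxE factor found throughout the lineage, had the smallest spread relative to its difference. It had 60.8 and 58.9 CPM in cuprizone libraries, against 34.4 and 42.8 CPM in mock libraries. The lower cuprizone value was 1.38 times the higher mock value, so the groups stood clear of each other. Its means were 59.8 ± 1.36 CPM in cuprizone and 38.6 ± 5.90 CPM in mock libraries (SD, n = 2 each), and its log2 fold was 0.56 (SE 0.22). The edgeR adjusted p was 0.367, and it ran from 0.311 to 0.837 over 13 alternative fits. Leaving out 1 library at a time gave log2 folds of 0.42 to 0.75. Sox10 (ENSMUSG00000033006) lies on chromosome 15 of GRCm38 at 79154908 to 79165240.

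Myrf, the membrane-bound factor that is cleaved to release an activator of myelin genes, showed a like pattern. Its libraries stood at 45.6 and 47.6 CPM for cuprizone and at 19.6 and 32.7 CPM for mock. The cuprizone pair was close together and the mock pair was wider, yet the pairs did not overlap. The log2 fold was 0.76 (SE 0.31), with an edgeR adjusted p of 0.381. Dropping mock replicate 1 gave 0.44, dropping mock replicate 2 gave 1.20 and dropping cuprizone replicate 2 gave 0.72. Of the 36 pairs of members, Sox10 and Myrf had the second smallest distance between profiles, a root mean square difference of 0.19 on log2(CPM + 1) over the 4 libraries after centring. The closest pair was Olig2 with Nkx6-2, at 0.17, and the farthest was Olig1 with Olig2, at 0.73. Genes outside the set lay nearer than any member, Fem1b at 0.015 from Sox10 and Coro2a at 0.028 from Myrf. A rank among 36 pairs therefore does not show that Sox10 and Myrf move together. Myrf (ENSMUSG00000036098) spans 10208272 to 10240748 on chromosome 19.

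Olig2, which sets oligodendrocyte identity and is also known from some astrocytes, had the largest fold of the 9. It had 32.2 and 18.1 CPM in cuprizone libraries, against 12.8 and 12.8 CPM in mock libraries. The mock pair was almost equal, whereas cuprizone replicate 1 was well above cuprizone replicate 2. The log2 fold was 0.90 (SE 0.38), the edgeR adjusted p 0.401. The fold was 0.43 without cuprizone replicate 1 and 1.25 without cuprizone replicate 2. Its neighbour Olig1, expressed through the lineage, did not share this pattern. Olig1 had 237 and 404 CPM in cuprizone libraries, against 224 and 378 CPM in mock libraries. Replicate 1 was low and replicate 2 high in each group, and the groups overlapped. The Olig1 log2 fold was 0.02 (SE 0.33), with an edgeR adjusted p of 0.993, and turned to -0.43 without cuprizone replicate 2 and to -0.31 without mock replicate 1. Counts of Olig1 were 7.34 and 22.4 times those of Olig2 in the cuprizone libraries and 17.5 and 29.6 times in the mock libraries, a ratio of reads not corrected for length, which overlapped between groups. Both genes lie on the plus strand of chromosome 16, Olig2 (ENSMUSG00000039830) at 91225457 to 91228677 and Olig1 (ENSMUSG00000046160) at 91269772 to 91271933.

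**Figure D1:**
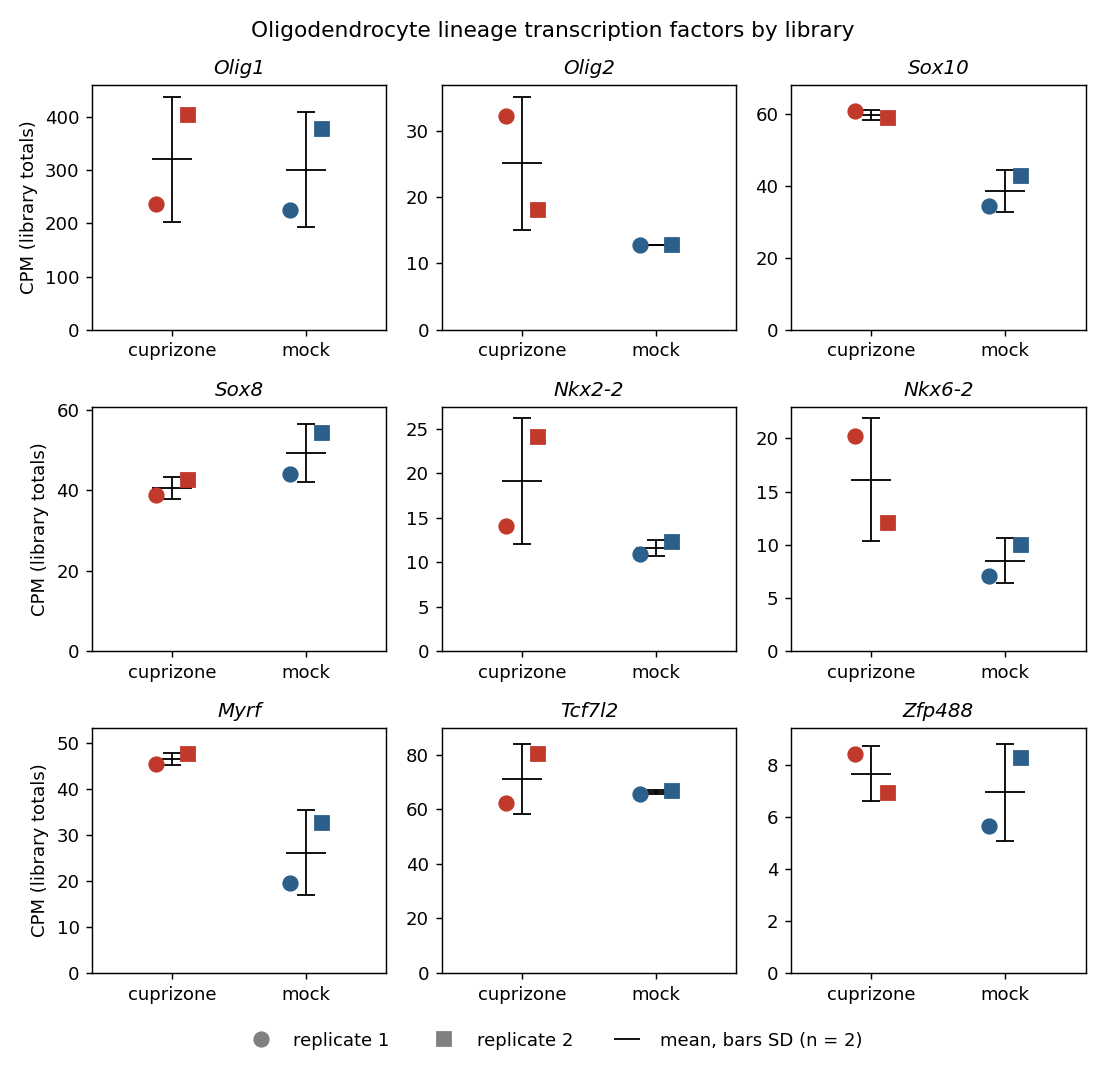
CPM on library totals (vertical axes, each from 0) for the 9 factors in 2 cuprizone and 2 mock libraries, with means and SD bars; circles are replicate 1 and squares replicate 2. Sox10 and Myrf show a tight cuprizone pair above the mock pair, Olig2 a spread cuprizone pair above an almost equal mock pair, and Olig1 the same spread in both groups.

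Nkx2-2, a repressor that promotes the step from precursor to myelinating cell, had 14.1 and 24.1 CPM in cuprizone libraries, against 10.9 and 12.3 CPM in mock libraries. Cuprizone replicate 2 carried most of this difference. The log2 fold was 0.65 (SE 0.40, edgeR adjusted p = 0.574) and was 0.20 without cuprizone replicate 2. Nkx6-2, a homeodomain factor of mature oligodendrocytes, had 20.2 and 12.05 CPM in cuprizone libraries, against 7.06 and 9.996 CPM in mock libraries. Here cuprizone replicate 1 was the high library. The log2 fold was 0.85 (SE 0.43, edgeR adjusted p = 0.494), and fits that dropped cuprizone replicate 1, cuprizone replicate 2 or mock replicate 1 gave 0.44, 1.16 and 0.62. So the pair of homeodomain factors leaned on different cuprizone libraries.

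Both homeodomain genes share ground with a gene on the opposite strand, and the strand setting of the counting is not given in the sources used here, so reads of such partners cannot be told apart. Of the exon bases of Nkx6-2, 12.9% overlap exons of Inpp5a, which encodes an inositol phosphatase. Inpp5a itself had 185 and 137 counts in cuprizone libraries and 61 and 94 in mock libraries, the same order of libraries as Nkx6-2, and its part in the Nkx6-2 value was not tested. The antisense RNA Nkx2-2os covers 9.67% of the exon bases of Nkx2-2 and had 3 and 2 counts in cuprizone libraries and 51 and 5 in mock libraries, far below the 242 to 575 counts of Nkx2-2. Nkx2-2 (ENSMUSG00000027434) lies on chromosome 2 at 147177546 to 147194243 and Nkx6-2 (ENSMUSG00000041309) on chromosome 7 at 139579376 to 139582797.

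Sox8, the SoxE relative that partly overlaps with Sox10 in function, was the only member below in both cuprizone libraries. It had 38.7 and 42.6 CPM in cuprizone libraries, against 44.1 and 54.3 CPM in mock libraries. The gap was narrow, with the lower mock value only 1.04 times the higher cuprizone value. The log2 fold was -0.34 (SE 0.23) and the edgeR adjusted p 0.617, and leaving out single libraries kept the fold between -0.49 and -0.16. Within a library, counts of Sox10 were 1.57 and 1.38 times those of Sox8 in the cuprizone libraries, against 0.781 and 0.787 times in the mock libraries. This ratio was chosen after the values were seen, so it carries no test. It does not depend on the scaling between libraries, and its groups did not overlap. An antisense RNA, 2810468N07Rik, overlaps 10.6% of the Sox8 exon bases and had 2298 and 1938 counts in cuprizone libraries and 1913 and 1908 in mock libraries, more than the 846 to 1152 counts of Sox8. Sox8 (ENSMUSG00000024176) lies on chromosome 17 at 25565892 to 25570686.

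Tcf7l2 and Zfp488 differed little on average. Tcf7l2, which oligodendrocytes carry mainly while they differentiate and thalamic neurons carry too, had 62.1 and 80.1 CPM in cuprizone libraries, against 65.7 and 66.8 CPM in mock libraries. The mock values lay between the cuprizone values. Its log2 fold was 0.03 (SE 0.21), with an edgeR adjusted p of 0.979. Without cuprizone replicate 2 the fold was -0.17. The 9 thalamic markers summed to 75.2 and 89.5 CPM in cuprizone libraries and 92.9 and 90.0 CPM in mock libraries, with Gbx2 at 0 in all 4. Of the 8 tested, 1 was higher in both cuprizone libraries (25.7% of all tested genes), 3 were lower (18.9%) and 4 overlapped. Prkcd, the higher one, had 9.48 and 32.6 CPM in cuprizone libraries, against 6.83 and 2.36 CPM in mock libraries. Slc17a6, a lower one, had 23.0 and 9.99 CPM in cuprizone libraries, against 28.4 and 24.7 CPM in mock libraries. EdgeR called 0 (0.0822% of all tested genes) and DESeq2 1 higher (4.52% in either direction). Zfp488, a co-regulator of Olig2, had 8.43 and 6.93 CPM in cuprizone libraries, against 5.65 and 8.30 CPM in mock libraries. These rest on 125 to 184 counts, the fewest of the 9, and the groups overlapped. The Zfp488 log2 fold was 0.07 (SE 0.47), with an edgeR adjusted p of 0.981, and dropping cuprizone replicate 1 or mock replicate 1 gave -0.07 and -0.18. Tcf7l2 (ENSMUSG00000024985) spans 55741820 to 55933654 on chromosome 19 and Zfp488 (ENSMUSG00000044519) 33967070 to 33978764 on chromosome 14.

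**Figure D2:**
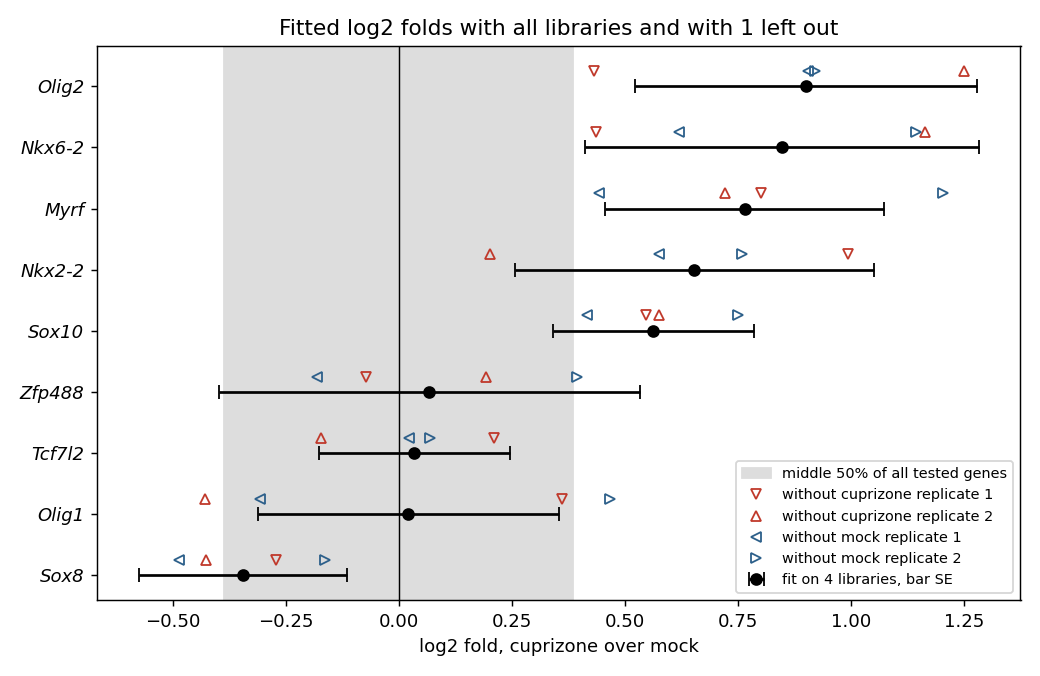
Fitted log2 folds of cuprizone over mock (horizontal axis) for the 9 factors, with SE bars, open triangles for fits without 1 library, and a grey band for the middle 50% of all tested genes. The 5 factors from Sox10 at 0.56 to Olig2 at 0.90 lie right of the band with all libraries, while Olig1, Tcf7l2 and Zfp488 have triangles on both sides of 0.

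As a set, the members had a median log2 fold of 0.56, beside 0.00 over all 15816 tested genes, whose middle 50% ran from -0.39 to 0.38. Positive folds stood in 8 of 9 members and in 50.1% of all tested genes. Among those 8, Olig1 (0.02), Tcf7l2 (0.03) and Zfp488 (0.07) had overlapping groups and turned negative in a fit without 1 library. The median dropped to 0.20 without cuprizone replicate 2, the library with the highest sum of granule cell markers. It was 0.43, 0.42 and 0.75 without cuprizone replicate 1, mock replicate 1 and mock replicate 2. The fit without cuprizone replicate 2 gave folds of 1.25 for Olig2, 1.16 for Nkx6-2, 0.72 for Myrf and 0.57 for Sox10. In the same fit Nkx2-2 had 0.20, Zfp488 0.19, Tcf7l2 -0.17, Sox8 -0.43 and Olig1 -0.43. Without cuprizone replicate 2 the remaining cuprizone library was above both mock libraries in 6 members (40.4% of all tested genes), the 5 named above and Zfp488. For 5 of 9 members, Olig1, Sox8, Nkx2-2, Tcf7l2 and Zfp488, the larger gap between replicates exceeded the difference between group means on log2(CPM + 1). Summed over the 9 genes, the factors made up 0.0519% and 0.0694% of counts in cuprizone libraries, against 0.0425% and 0.0618% in mock libraries, and Olig1 dominates this sum. In such bulk RNA, fewer cells of a type and less RNA per cell cannot be told apart.

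Levels between genes were compared as RPKM, that is CPM per kilobase of merged exons. Olig1 was far above the others, with 148 ± 54.6 RPKM in cuprizone and 139 ± 50.2 RPKM in mock libraries (SD, n = 2 each). In cuprizone libraries Sox10 followed at 19.6 ± 0.446 RPKM and then Sox8 at 13.0 ± 0.866 RPKM, and these neighbours did not overlap. In mock libraries their order was the opposite, Sox8 at 15.8 ± 2.32 RPKM above Sox10 at 12.6 ± 1.93 RPKM. Below them in cuprizone libraries came Olig2 (9.94 RPKM), Nkx6-2 (8.45 RPKM), Tcf7l2 (8.10 RPKM), Nkx2-2 (6.65 RPKM) and Myrf (5.44 RPKM), each overlapping its neighbour, Sox8 included. In mock libraries Tcf7l2 (7.55 RPKM) stood clear above Olig2 (5.06 RPKM), and Olig2, Nkx6-2, Nkx2-2 and Myrf again overlapped in sequence. Zfp488 was lowest in both groups, at 1.78 ± 0.247 RPKM in cuprizone and 1.62 ± 0.435 RPKM in mock libraries. With the longest transcript as length, Tcf7l2 averaged 19.1 RPKM in cuprizone and 17.8 RPKM in mock libraries, which places it above Sox8 in both.

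The myelin and related genes known as downstream of Sox10 or Myrf did not move as 1 block. All 19 were tested and edgeR called 0 (0.0822% of all tested genes), with 5 at an unadjusted p under 0.05 (12.8%). DESeq2 called 1 of them lower (4.52% of all tested genes in either direction) and limma-voom called 0 (0.297%). Cuprizone was lower in both libraries for 6 (18.9% of all tested genes), higher for 3 (25.7%) and overlapping for 10. The list's median log2 fold was -0.09. That median was -0.21 without cuprizone replicate 2, and over the fits without 1 library it ran from -0.22 to 0.19, so it had no fixed direction. Mbp, a major protein of compact myelin, had 1784 and 2502 CPM in cuprizone libraries, against 3964 and 4557 CPM in mock libraries. Its log2 fold of -1.06 (SE 0.19) was the largest of the list in size, with an edgeR adjusted p of 0.133. It was called in 3 of 13 alternatives, the fit without cuprizone replicate 2 among them (edgeR adjusted p = 0.0298), and adjusted p over all 13 ran from 1.8e-06 to 0.376. The 3 genes higher in both cuprizone libraries were Aspa, Rffl and Ndrg1, named after their values were seen; Aspa, the enzyme that splits N-acetylaspartate, had 143 and 219 CPM in cuprizone libraries and 105 and 118 CPM in mock libraries.

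Set against these genes within each library, the 9 factors together had 0.0427 and 0.0433 counts per count of the 19 targets in cuprizone libraries, against 0.0282 and 0.0352 in mock libraries. On the log2 scale the difference was 0.45, with an exact permutation p of 0.333 (2-sided), the smallest that 2 against 2 libraries allow. The difference was 0.02, with overlapping groups, when 11 mature oligodendrocyte markers served as the denominator, so it depends on which myelin genes are chosen. Without Mbp it was 0.25 and without Olig1 among the factors 0.61, both versions chosen after the values were seen. With means of log2(CPM + 1) it was 0.40. For Sox10 and Mbp alone, chosen after the values were seen, there were 0.0341 and 0.0235 counts of Sox10 per count of Mbp in cuprizone libraries, against 0.00868 and 0.00938 in mock libraries.

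Markers of other lineage stages lay on different sides. Of 9 precursor markers, all tested, 6 were lower in both cuprizone libraries (18.9% of all tested genes), 0 were higher in both (25.7%) and 3 overlapped. Their median log2 fold was -1.21. EdgeR called 0 of these markers, 2 had an unadjusted p under 0.05, DESeq2 called 1 lower and limma-voom called 0. Over all tested genes those shares were 0.0822%, 12.8%, 4.52% and 0.297% in either direction. Pdgfra, the growth factor receptor of precursors, had 14.3 and 20.1 CPM in cuprizone libraries, against 39.9 and 35.9 CPM in mock libraries. Its edgeR adjusted p was 0.214 for a log2 fold of -1.21 (SE 0.30). Cspg4, the NG2 proteoglycan, had 0.595 and 3.44 CPM in cuprizone libraries and 6.47 and 8.35 CPM in mock libraries. Per library, Sox10 had 4.24 and 2.92 counts per count of Pdgfra in cuprizone libraries, against 0.862 and 1.19 in mock libraries, a ratio also picked after the values were seen.

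Of 8 markers of committed precursors and newly formed oligodendrocytes, 7 were tested, 3 were lower and 1 was higher in both cuprizone libraries, and Casr was at 0 in all 4. Bcas1, which marks newly formed oligodendrocytes, had 29.9 and 34.1 CPM in cuprizone libraries, against 55.3 and 68.9 CPM in mock libraries. Gpr17, a receptor of committed precursors, had 2.61 and 10.96 CPM in cuprizone libraries and 13.3 and 14.5 CPM in mock libraries. Among the 11 mature markers 5 were higher, 3 lower and 3 overlapping, with a median log2 fold of 0.28 that was -0.12 without cuprizone replicate 2. Car2, a carbonic anhydrase, had 1249 and 1717 CPM in cuprizone libraries, against 1039 and 1037 CPM in mock libraries. Anln, a cytoskeletal scaffold protein of myelin, had 120 and 144 CPM in cuprizone libraries and 80.9 and 68.6 CPM in mock libraries. Its edgeR adjusted p was 0.231 for a log2 fold of 0.75 (SE 0.20). Mog, Mag and Mobp, named after their values were seen, were the 3 lower ones. Their log2 folds were -0.43, -0.56 and -0.38, each with an unadjusted edgeR p under 0.05. Of these 11 genes, 5 also stand in the list of 19. EdgeR called 0 of the newly formed and 0 of the mature markers, with 1 and 7 at an unadjusted p under 0.05, while DESeq2 called 1 lower and 2 higher and limma-voom 0 and 0. Over all tested genes, 25.7% were higher and 18.9% lower in both cuprizone libraries. In either direction, 12.8% had an unadjusted p under 0.05, and edgeR called 0.0822%, DESeq2 4.52% and limma-voom 0.297%.

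**Figure D3:**
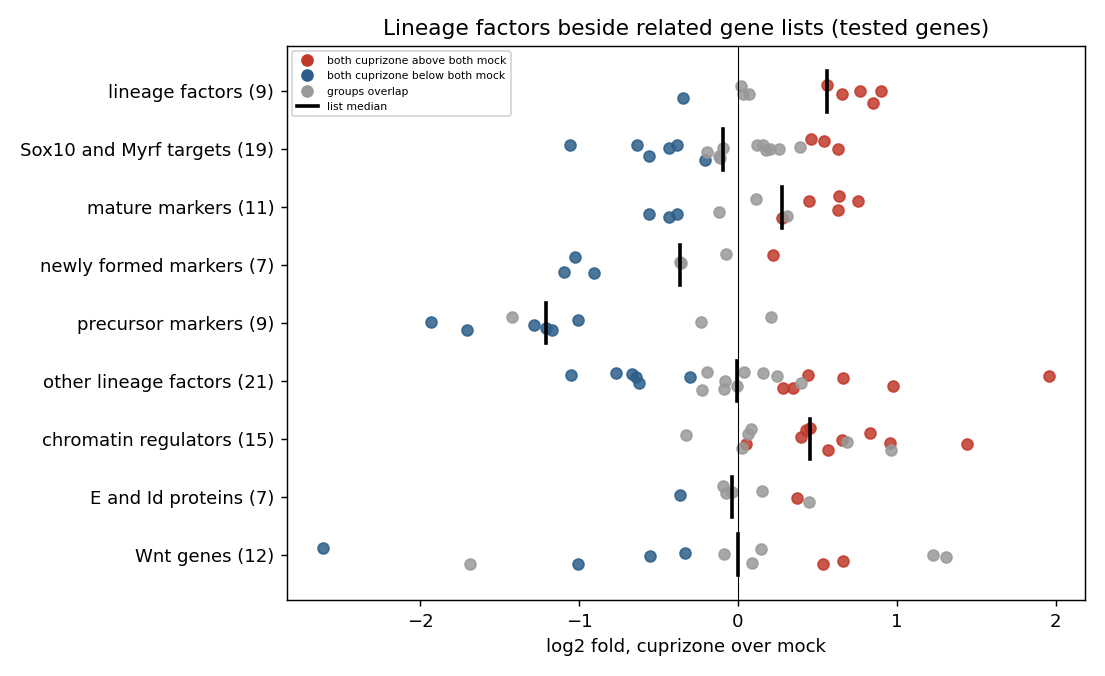
Log2 folds of cuprizone over mock (horizontal axis) for the tested genes of 9 lists, numbers tested in brackets, coloured by whether both cuprizone libraries lay above or below both mock libraries or overlapped; black bars are list medians. The lineage factors have a median of 0.56, the precursor markers -1.21 and the Sox10 and Myrf targets -0.09.

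Other regulators of the lineage gave a mixed picture. Among 22 further transcription factors 21 were tested, with a median log2 fold of -0.01. Both cuprizone libraries were higher for 6 (25.7% of all tested genes) and lower for 6 (18.9%). Nkx6-1, the relative of Nkx6-2, was at 0 in all 4 libraries. Klf9, a thyroid hormone-induced factor and the most abundant, had 401 and 313 CPM in cuprizone libraries and 244 and 330 CPM in mock libraries, with overlap. Myt1, a zinc finger factor, had the largest fold, with 6.50 and 10.3 CPM in cuprizone libraries and 0.588 and 3.54 CPM in mock libraries. Its log2 fold of 1.96 (SE 0.89) had an edgeR adjusted p of 0.436, and ran from 1.18 to 3.78 when 1 library was left out.

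The partners of these proteins were examined in the same way. Of 7 E and Id proteins, which pair with or block helix-loop-helix factors such as Olig2, 1 was higher and 1 lower. Over all tested genes those shares were 25.7% and 18.9%. The E protein gene Tcf4 had 617 and 664 CPM in cuprizone libraries and 692 and 611 CPM in mock libraries, and Tcf12 had 41.1 and 35.9 CPM in cuprizone libraries and 17.9 and 35.9 CPM in mock libraries. Of 13 Wnt genes, 12 were tested, 2 higher and 4 lower, beside the same shares of all tested genes. Their median log2 fold of 0.00 was -0.50 without cuprizone replicate 2. Ctnnb1, which encodes beta-catenin, had 143 and 161 CPM in cuprizone libraries, against 96.9 and 103 CPM in mock libraries. Its edgeR adjusted p was 0.284 for a log2 fold of 0.54 (SE 0.17). Lef1, a relative of Tcf7l2, had 0.595 and 0.0840 CPM in cuprizone libraries and 1.81 and 2.17 CPM in mock libraries, from 2 to 46 counts.

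Among 15 chromatin regulators 9 were higher in both cuprizone libraries (25.7% of all tested genes) and 0 lower (18.9%). Their median log2 fold of 0.46 was 0.19 without cuprizone replicate 2. Smarca4, the ATPase that works with Olig2 at oligodendrocyte genes, had 126 and 196 CPM in cuprizone libraries, against 119 and 88.5 CPM in mock libraries. Chd8, another remodelling enzyme, had 28.0 and 38.1 CPM in cuprizone libraries, against 14.3 and 8.82 CPM in mock libraries, and its log2 fold of 1.44 (SE 0.37) had an edgeR adjusted p of 0.231. EdgeR called 0 genes in these 4 lists. Among other factors, E and Id proteins, Wnt genes and chromatin regulators, 2, 0, 1 and 2 genes had an unadjusted p under 0.05. DESeq2 called 1 chromatin regulator higher and limma-voom 0 genes. Over all tested genes, in either direction, edgeR called 0.0822%, DESeq2 4.52% and limma-voom 0.297%, and 12.8% had an unadjusted p under 0.05.

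**Figure D4:**
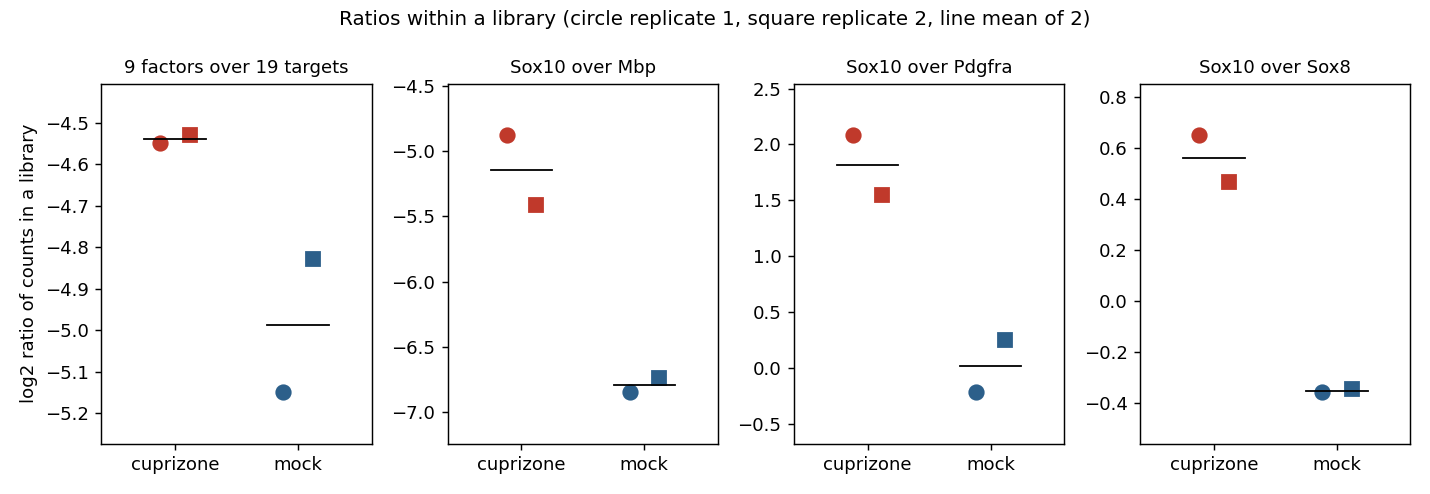
Log2 ratios of counts within each library (vertical axes, which differ between panels and do not start at 0) for the 9 factors over 19 targets and for Sox10 over Mbp, Pdgfra and Sox8, with lines at the means of 2 libraries. In each panel both cuprizone libraries lie above both mock libraries, and the last 3 ratios were chosen after the values were seen.

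Other values moved beside these results. Long RNAs kept mainly in the nucleus were higher in both cuprizone libraries for 4 of 6 (25.7% of all tested genes). They summed to 766 and 777 CPM in cuprizone libraries, against 210 and 191 CPM in mock libraries. Meg3 had a log2 fold of 2.27 (SE 0.17) and Malat1 1.96 (SE 0.17), with edgeR adjusted p of 0.0176 and 0.0290, and all 6 had positive folds. Meg3 was called in 11 of 13 alternatives and Malat1 in 10 of 13. Dropping mock replicate 1 gave edgeR adjusted p of 0.0702 and 0.0643, and dropping mock replicate 2 gave 0.166 and 0.174, so neither call held without either mock library. Neuron markers took 1.68% and 1.65% of counts in cuprizone libraries and 1.44% and 1.499% in mock libraries. Snap25, a protein of synaptic vesicle release, had 9900 and 10008 CPM of that sum in cuprizone libraries and 8292 and 8297 CPM in mock libraries. Of the 11 neuron markers 6 were higher in both cuprizone libraries (25.7% of all tested genes), 3 were lower (18.9%) and 2 overlapped. The 3 lower ones, named after their values were seen, were Syt1, Thy1 and Slc17a7. DESeq2 called 1 neuron marker higher and 3 lower (4.52% of all tested genes in either direction). The 6 Schwann and ensheathing cell markers, which could bring Sox10, summed to 17.7 and 11.8 CPM in cuprizone libraries and 31.1 and 46.1 CPM in mock libraries. Microglia markers summed to 20.6 and 21.8 CPM in cuprizone libraries and 40.9 and 57.4 CPM in mock libraries. The 6 Bergmann glia markers, astrocytes of the cerebellum, summed to 702 and 1327 CPM in cuprizone libraries and 766 and 774 CPM in mock libraries. Most of this was Sept4, with 557 and 1118 CPM in cuprizone libraries and 556 and 578 CPM in mock libraries. Gdf10, which had the largest fold of them, had 5.18 and 23.9 CPM in cuprizone libraries and 2.67 and 8.35 CPM in mock libraries. Fabp7, named after its values were seen, was lower in both cuprizone libraries and called lower by DESeq2, and the other 5 markers overlapped. Pericyte markers summed to 9.53 and 14.2 CPM in cuprizone and 27.7 and 19.3 CPM in mock libraries, ependymal and choroid plexus markers to 29.2 and 69.3 CPM in cuprizone and 154 and 40.0 CPM in mock libraries, and endothelial markers to at most 2.98 CPM. The part of each in the members' values was not tested.

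Genes with the most similar profiles were taken from tested genes with a mean of at least 5 CPM, by the same distance over the 4 libraries. With so few libraries many genes lie close. Fem1b was nearest to Sox10, at a root mean square difference of 0.015, with 69.1 and 65.0 CPM in cuprizone libraries and 39.0 and 48.1 CPM in mock libraries. Coro2a was nearest to Myrf (0.028), with 24.2 and 25.7 CPM in cuprizone libraries and 10.7 and 17.4 CPM in mock libraries. Dennd1a was nearest to Olig2 (0.018), with 20.6 and 11.6 CPM in cuprizone libraries and 8.10 and 8.25 CPM in mock libraries. Dlgap2 was nearest to Sox8 (0.019), Cdh7 to Nkx2-2 (0.026), Taf1 to Nkx6-2 (0.030), Ufd1 to Tcf7l2 (0.014) and Klhl3 to Zfp488 (0.020). No other member was among the 2 nearest genes of any member.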

How the data were processed

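The 4 libraries each came with a table of raw counts per Ensembl gene, deposited by the authors and not normalized. Per the submitters' processing notes, FastQC 0.11.9, STAR 2.5.4b and featureCounts 1.6.0 were used with the mouse build GRCm38 (mm10); no source used here names the annotation release, the strand setting or the treatment of reads with several positions. Per the labels' protocols, RNA with an integrity number above the submitters' limit went into low-input libraries.

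Symbols matched 55144 of 55471 ids; positions and exon lengths come from GENCODE M21. CPM values use library totals. The comparison used R 4.3.3 and edgeR 4.0.16: after filterByExpr, 15816 genes went through TMM scaling, robust glmQLFit with the legacy option and a 2-sided glmQLFTest without covariates, adjusted by Benjamini-Hochberg at a threshold of 0.05. The SE is the log2 fold over the square root of F. The code was tested on simulated data. DESeq2 1.42.0, limma 3.58.1 (voom), other scalings and filters, a replicate block and leaving out single libraries were alternatives. The members and lists were chosen with earlier results of these data known. Named were all members, of each list its called genes (at most 3) or its most abundant and its most changed gene with a mean of at least 1 CPM, Gfap, Rpl22 and the genes of most similar profile. Markers of other cell types are mostly given as sums. Some genes that this rule names are not reported here.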

Additional observations from a re-analysis of the deposited data

How the results depend on the processing

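The number of genes called was 13 with edgeR and 191 without a filter, 68 at a mean CPM of at least 1, 715 with DESeq2, 47 with limma-voom, 51 with the bias-adjusted quasi-likelihood and 10 with the replicate block; dropping cuprizone replicate 1 gave 123 calls, dropping cuprizone replicate 2 gave 26, and dropping either mock library gave 5. The cause was not tested. None of the 13 alternatives called any of the 9 members, whose lowest adjusted p was 0.235 (Myrf with DESeq2). The members' median log2 fold ran from 0.20 to 0.75 without 1 library. In the other fits it differed from the main value of 0.56 by less than 0.36, the within-group SD of the members' median. Of 117 member folds under alternatives, 112 kept their direction; the 5 exceptions came from leaving out 1 library, where Olig1 ran from -0.43 to 0.47, Tcf7l2 from -0.17 to 0.21 and Zfp488 from -0.18 to 0.39. The log2 ratio of factors to targets differed by 0.45, by 0.0154 with mature markers as denominator and by 0.25 without Mbp. It differed by 0.40 with means of log2(CPM + 1), by 0.61 without Olig1 and by 0.29 to 0.61 without 1 library. The Mbp alternative, the one without Olig1 and the count of non-overlapping members under other libraries or scaling were chosen after seeing the data. Replicate numbers are shared between groups but nothing in the labels pairs them: same-numbered deviations correlated at 0.009 across genes, and the replicate block, with 10 calls, changed no member's call but lost that of Malat1 (edgeR adjusted p = 0.0578). At 2 libraries a group, Zfp488, with 125 to 184 counts, had an SE of 0.47.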
